A study of Mus musculus with 4 samples.

Results

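The genes described here are 10 members of receptor tyrosine kinase signalling: the receptors Met, Egfr, Erbb2, Erbb3, Fgfr1 and Fgfr2, and the EGF-family ligands Hbegf, Tgfa, Areg and Ereg. They were taken by gene name from a deposited table of read counts for 52636 genes. Of the 10, 8 reached a CPM (the count scaled to library size) of at least 1 in at least 1 library and so stand among the 12351 genes kept for comparison. Areg and Ereg had 0 counts in every library.

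The counts come from RNA-seq of Myc-CaP, a mouse prostate cancer cell line whose strain is labelled FVB and Hi-Myc transgenic, a background that all groups share. The groups were cells stably carrying shRNAs that target the kinase FAK, the product of Ptk2 (named shFAK here), given 10 µM norepinephrine for 24 h, the same cells given vehicle, cells carrying negative control shRNAs (shNC) given norepinephrine, and shNC cells given vehicle. How many hairpins were used, and whether each line is a clone or a pool, is not given in the sources used here. Each group was 1 library, so no difference below has a replicate check, no p-value is given, and a hairpin effect cannot be told apart from any other difference between the lines. The question was what the hormone and the knockdown of FAK each do to gene expression.

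Library totals were 23410486 to 29948640 counts. Ptk2, the target of the hairpins, had 1248 counts in shFAK norepinephrine and 1294 in shFAK vehicle, against 3158 in shNC norepinephrine and 3547 in shNC vehicle, which put it at 43.9% and 40.8% of the shNC level. The prostate homeobox gene Hoxb13 had 1095 to 1321 counts per library. Several defining epithelial markers were at or near 0: Epcam had 0 to 15 counts, Cdh1 0 to 7 and Krt18 1 to 4, and the luminal gene Tmprss2 had 0 in every library. The keratin gene Krt8 had 48 and 50 counts in shFAK norepinephrine and vehicle, against 165 and 153 in shNC norepinephrine and vehicle. Krt19, another epithelial marker, had 193 and 211 counts in shFAK norepinephrine and vehicle, against 254 and 280 in shNC norepinephrine and vehicle. Its scaled log2 ratio of shFAK over shNC was -0.24 in norepinephrine and -0.25 in vehicle, with counting intervals that held 0. The basal keratin gene Krt14 had 70 and 109 counts in shFAK norepinephrine and vehicle, against 69 and 81 in shNC norepinephrine and vehicle. No marker of endothelial cells, leukocytes or neural cells passed the filter. Of 6 fibroblast markers, Col1a1 and Pdgfra passed, and Dcn and Lum had 0 counts in every library. Summed over that list the level was 4.20 and 4.10 TPM (a level per length, scaled to a common sum over all genes) in shFAK norepinephrine and vehicle, against 1.92 and 2.75 TPM in shNC norepinephrine and vehicle. Most of that sum was Pdgfra, at 3.67 and 3.69 TPM in shFAK norepinephrine and vehicle, against 1.86 and 2.58 TPM in shNC norepinephrine and vehicle. Col1a1 had 4 to 24 counts. Col1a2 had 0 to 1 counts and Thy1 0 to 2. Mainly through Pdgfra, the sum in TPM was thus higher in shFAK, as several receptors below were. The scaled log2 ratio of Pdgfra, shFAK over shNC, was 0.74 in norepinephrine and 0.40 in vehicle. It was 0.49 and 0.27 with the trend on gene length, described below, taken off. The part of this list in the receptor values was not tested.

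Receptor tyrosine kinases carry growth signals from outside an epithelial cell to RAS, MAP kinase and PI3 kinase inside it. Egfr binds EGF-family ligands, which are made as membrane proteins and released by ADAM proteases. Erbb2 has no known soluble ligand and acts as the partner of the other ErbB receptors, while Erbb3 has a weak kinase and passes signals to PI3 kinase. Met is the receptor for hepatocyte growth factor, and Fgfr1 and Fgfr2 bind fibroblast growth factors, with epithelial cells mostly using a splice form of Fgfr2. FAK binds activated Egfr and Met complexes at adhesion sites. The counts are per gene and do not tell splice forms apart.

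Promoter sequence was available for 6 of the 10 members from RefSeq (build GRCm38.p6). RefSeq starts can differ from the deposited gene starts, and those of Met, Erbb2 and Fgfr2 lie inside the deposited gene, so that part of the Met and Erbb2 windows and the whole Fgfr2 window do too. The 250 bases before the RefSeq start are shown for the 3 receptors with a promoter entry that were higher in both shFAK libraries (Met, Egfr and Fgfr2), for Erbb2, which stayed close to the same level, and for Areg, which had no count. Capitals mark matches on either strand to a GC box (GGGCGG), an E-box (CACGTG), a cAMP response element (TGACGTCA), an AP-1 site (TGANTCA) or a TATA box (TATAAA). Sequences run 5′ to 3′ on the gene's strand.
Met promoter (chr6:17463707-17463956, plus strand): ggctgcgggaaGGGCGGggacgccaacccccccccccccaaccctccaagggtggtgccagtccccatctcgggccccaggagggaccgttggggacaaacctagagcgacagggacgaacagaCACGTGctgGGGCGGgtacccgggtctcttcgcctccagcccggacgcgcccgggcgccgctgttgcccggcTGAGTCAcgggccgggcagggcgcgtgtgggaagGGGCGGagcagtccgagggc
Egfr promoter (chr11:16751953-16752202, plus strand): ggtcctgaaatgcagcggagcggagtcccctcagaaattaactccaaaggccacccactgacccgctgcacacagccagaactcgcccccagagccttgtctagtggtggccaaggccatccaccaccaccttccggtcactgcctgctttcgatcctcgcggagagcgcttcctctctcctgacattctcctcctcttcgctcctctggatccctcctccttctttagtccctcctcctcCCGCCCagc
Erbb2 promoter (chr11:98412234-98412483, plus strand): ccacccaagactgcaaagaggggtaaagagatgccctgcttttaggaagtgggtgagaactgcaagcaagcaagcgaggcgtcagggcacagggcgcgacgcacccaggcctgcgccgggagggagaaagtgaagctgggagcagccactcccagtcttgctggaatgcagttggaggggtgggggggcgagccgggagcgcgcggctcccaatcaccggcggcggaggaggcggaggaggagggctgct
Fgfr2 promoter (chr7:130266809-130267058, minus strand): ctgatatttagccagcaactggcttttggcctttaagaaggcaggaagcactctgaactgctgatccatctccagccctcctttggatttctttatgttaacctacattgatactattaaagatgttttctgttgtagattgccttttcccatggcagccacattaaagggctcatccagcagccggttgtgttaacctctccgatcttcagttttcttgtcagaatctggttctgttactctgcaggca
Areg promoter (chr5:91139349-91139598, plus strand): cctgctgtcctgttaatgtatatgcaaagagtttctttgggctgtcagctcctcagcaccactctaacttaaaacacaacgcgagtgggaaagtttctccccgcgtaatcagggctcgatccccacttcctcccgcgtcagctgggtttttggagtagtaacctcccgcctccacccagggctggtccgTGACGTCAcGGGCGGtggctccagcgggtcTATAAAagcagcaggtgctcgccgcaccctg

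The Met window is the most GC-rich of the 5 shown, at 74.0% G and C with 24 CG dinucleotides, against medians of 52.4% and 6 over 32851 mouse promoter windows of the same length. It holds 3 GC boxes, 1 E-box beginning 126 bases before the start and 1 AP-1 match beginning 54 bases before it. Over all windows, a GC box was found in 32.7%, an E-box in 6.02% and an AP-1 match in 6.75%. The Egfr window (60.8% G and C) holds 1 GC box, 9 bases before the start, and the Erbb2 window (66.0%) and the Fgfr2 window (44.0%) hold no match to any of the 5 motifs. The Areg window holds the complete cAMP response element 61 bases before the start, a motif found in 1.55% of all windows, a GC box 52 bases before it and a TATA box 31 bases before it, found in 12.4%. A match is a string of letters and not a measured site, and the motifs were chosen with the counts already known.

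Met and Erbb2 were the most abundant members per unit of length. Met (ENSMUSG00000009376, mm10 chromosome 6, 17463800 to 17573980, plus strand) was at 115 TPM in shFAK norepinephrine and 129 TPM in shFAK vehicle, against 59.7 TPM in shNC norepinephrine and 89.0 TPM in shNC vehicle. These levels were above those of 86.8%, 88.2%, 77.5% and 83.4% of kept genes in the same libraries. Erbb2 (ENSMUSG00000062312, chromosome 11, 98412470 to 98437716) was at 68.1 and 64.0 TPM in shFAK norepinephrine and vehicle, against 53.0 and 57.1 TPM in shNC norepinephrine and vehicle. Met stood first and Erbb2 after it in all 4 libraries, with 99% counting intervals that did not overlap. TPM serves here to order genes within a library. In both treatments it sets shFAK further above shNC than the scaled CPM used for the ratios below. On that CPM scale, shFAK over shNC in norepinephrine was 1.64-fold for Met and 1.09-fold for Erbb2.

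Hbegf and Fgfr2 came next in the order. Hbegf, which encodes a heparin-binding ligand of Egfr, was at 20.2 to 26.7 TPM and Fgfr2 at 10.3 to 22.2 TPM. The 99% counting intervals of these neighbours overlapped in shFAK vehicle and not in the other libraries. Their order depends on the gene model: the deposited Hbegf length is 2373 bases, and the 4834 bases of merged exons in GENCODE M21 would put Hbegf at 13.1 and 12.1 TPM in shFAK norepinephrine and vehicle, against 9.91 and 10.4 TPM in shNC norepinephrine and vehicle. Erbb3, Tgfa and Egfr followed at 2.87 to 8.98 TPM. In shFAK the order was led by Erbb3, at 8.98 TPM in norepinephrine and 7.79 TPM in vehicle, while in shNC Tgfa led with 4.59 TPM in norepinephrine and 5.64 TPM in vehicle. Neighbours among these 3 genes had overlapping intervals except for Erbb3 and Tgfa in shFAK norepinephrine and Erbb3 and Egfr in shNC norepinephrine. Fgfr1 was lowest of the genes with counts, at 2.72 and 2.34 TPM in shFAK norepinephrine and vehicle, against 1.09 and 0.950 TPM in shNC norepinephrine and vehicle.

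Within the ErbB receptors, Erbb2 supplied most of the transcripts. Its share of the summed TPM of Egfr, Erbb2 and Erbb3 was 82.5% and 81.9% in shFAK norepinephrine and vehicle, against 88.3% and 86.6% in shNC norepinephrine and vehicle. Erbb3 made up 10.9% and 9.96% of that sum in shFAK, against 6.90% and 7.16% in shNC, in the same order of treatments. Per length, Erbb2 was 7.58 and 8.22 times as abundant as Erbb3 in shFAK norepinephrine and vehicle, against 12.8 and 12.1 times in shNC norepinephrine and vehicle, with intervals that did not overlap between the lines. These shares and ratios need no scaling between libraries. Among the ligands, Hbegf was 4.46 and 4.17 times as abundant as Tgfa in shFAK norepinephrine and vehicle, against 4.40 and 3.75 times in shNC norepinephrine and vehicle, with intervals that all overlapped. At the GENCODE length of Hbegf these ratios were 2.19 and 2.05 in shFAK, against 2.16 and 1.84 in shNC, in the same order of treatments.

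Areg and Ereg, neighbouring genes on chromosome 5 (Areg at 91139599 to 91148432, Ereg at 91074622 to 91093646), encode amphiregulin and epiregulin. With 0 counts, and taking 3 counts as the most that a count of 0 allows, Areg could be at up to 0.304 and 0.280 TPM in shFAK norepinephrine and vehicle, against 0.233 and 0.232 TPM in shNC norepinephrine and vehicle. For Ereg the same limit was 0.0682 to 0.0895 TPM. Limits and intervals cover counting error only and no spread between cultures, since each group was 1 library. Reads lacking molecular identifiers may be copies of 1 molecule, so the counting error itself may be larger than they show.

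**Figure D1:**
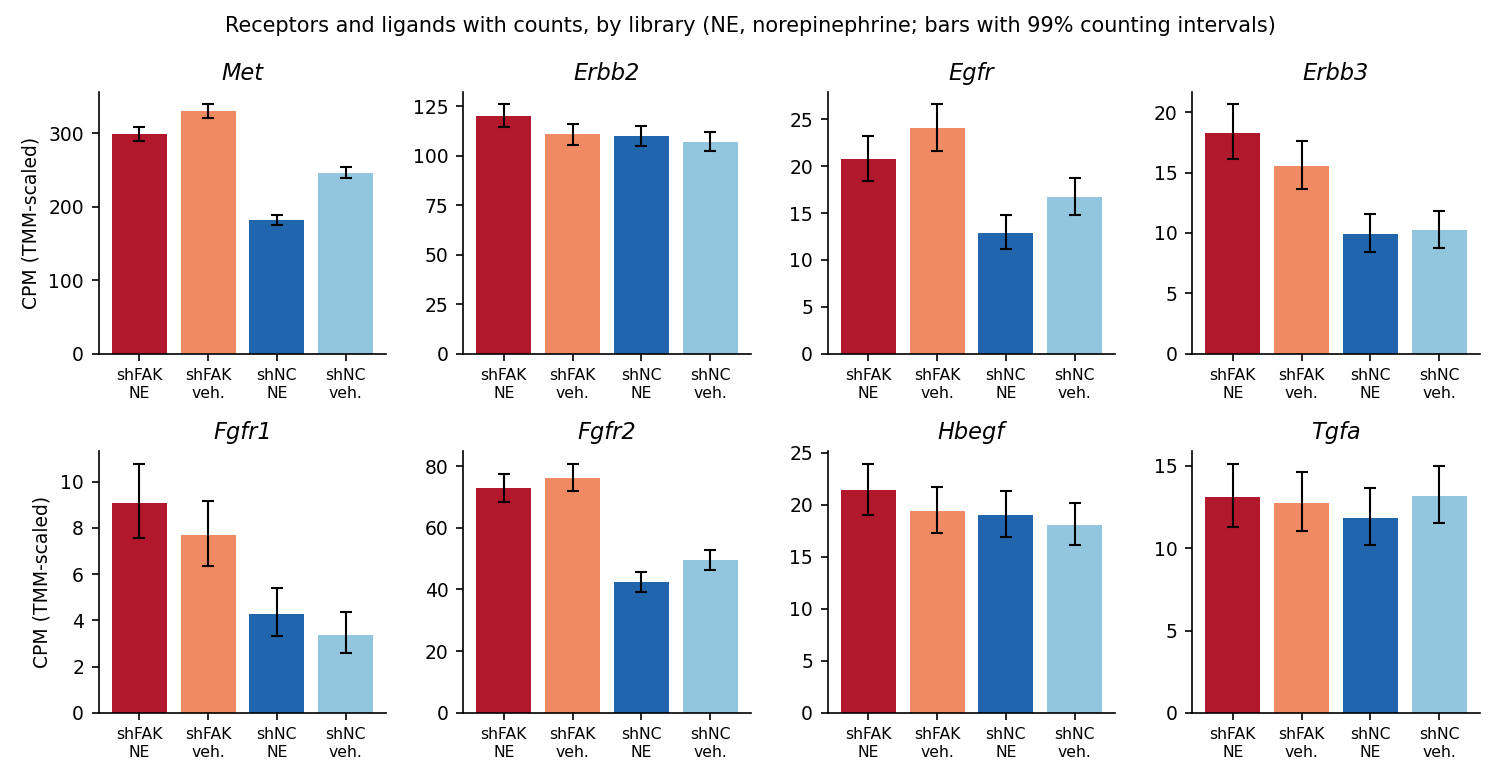
Library-scaled level (CPM, linear axis from 0) of the 8 members with counts in each of the 4 single libraries, with shFAK bars left of shNC bars and error bars showing 99% counting intervals. Met, Egfr, Erbb3, Fgfr1 and Fgfr2 are higher in both shFAK libraries, while Erbb2, Hbegf and Tgfa are nearly level.

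The hairpin comparison set shFAK against shNC within each treatment. Every ratio is a log2 ratio of CPM with its 99% counting interval, and a gene met the size rule when it differed at least 2-fold with an interval that left out 0. Fgfr1 was the member that met the rule, in both treatments. In bulk RNA a higher level per cell and a larger share of expressing cells cannot be told apart.

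Fgfr1 (ENSMUSG00000031565, chromosome 8, 25513654 to 25575718), a receptor for fibroblast growth factors, had 218 counts in shFAK norepinephrine against 114 in shNC norepinephrine, and 204 in shFAK vehicle against 100 in shNC vehicle. Both shFAK libraries lay above both shNC libraries. Its level was 2.10-fold higher in norepinephrine (log2 1.07, interval 0.65 to 1.53) and 2.25-fold higher in vehicle (log2 1.17, 0.73 to 1.66). By the same rule 2.62% of kept genes were higher in shFAK under norepinephrine and 1.42% under vehicle, and 0.632% and 0.462% were lower. With 1 of 8 members called in each pair, the count rests on a single gene. A higher ratio than that of Fgfr1 was found for 2.46% of kept genes in norepinephrine and 1.05% in vehicle.

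The other FGF receptor of the set, Fgfr2 (ENSMUSG00000030849, chromosome 7, 130162451 to 133123350), had 1750 counts in shFAK norepinephrine against 1132 in shNC norepinephrine, and 2025 in shFAK vehicle against 1464 in shNC vehicle. The log2 ratio was 0.78 in norepinephrine (0.64 to 0.92) and 0.63 in vehicle (0.50 to 0.76). In GENCODE M21, 314 bases of Fgfr2 exon are shared with Ctbp2 on the same strand, 3.04% of its exon bases. Ctbp2 had 1070 and 1217 counts in shFAK norepinephrine and vehicle, against 1278 and 1521 in shNC norepinephrine and vehicle. The part of the shared bases in the Fgfr2 ratio was not tested. Within a library, Fgfr2 was 7.68 and 9.49 times as abundant per length as Fgfr1 in shFAK norepinephrine and vehicle, against 9.49 and 14.0 times in shNC norepinephrine and vehicle.

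Erbb3 (ENSMUSG00000018166, chromosome 10, 128567523 to 128589652) had 439 counts in shFAK norepinephrine against 264 in shNC norepinephrine, and 413 in shFAK vehicle against 303 in shNC vehicle. Its log2 ratio was 0.88 in norepinephrine (0.59 to 1.18) and 0.60 in vehicle (0.32 to 0.89). Egfr (ENSMUSG00000020122, chromosome 11, 16752203 to 16918158) had 499 counts in shFAK norepinephrine against 344 in shNC norepinephrine, and 638 in shFAK vehicle against 494 in shNC vehicle. For Egfr the ratio was 0.68 in norepinephrine (0.42 to 0.95) and 0.53 in vehicle (0.30 to 0.75). Both genes had their shFAK library above the shNC library of the same treatment.

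Met had 7178 counts in shFAK norepinephrine against 4857 in shNC norepinephrine, and 8752 in shFAK vehicle against 7289 in shNC vehicle. The log2 ratio was 0.71 in norepinephrine (0.64 to 0.78) and 0.42 in vehicle (0.36 to 0.48), so that Met was 1.64-fold and 1.34-fold higher. Against Erbb2 in the same library, Met was 1.69 and 2.02 times as abundant per length in shFAK norepinephrine and vehicle, against 1.13 and 1.56 times in shNC norepinephrine and vehicle. In each treatment the counting intervals of this within-library ratio did not overlap between the lines.

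Erbb2, Hbegf and Tgfa differed little between the lines. Erbb2 had 2883 counts in shFAK norepinephrine against 2929 in shNC norepinephrine, and 2941 in shFAK vehicle against 3173 in shNC vehicle, with scaled log2 ratios of 0.13 (0.03 to 0.23) and 0.05 (-0.05 to 0.14). Hbegf (ENSMUSG00000024486, chromosome 18, 36504929 to 36515805) had 514 counts in shFAK norepinephrine against 508 in shNC norepinephrine, and 515 in shFAK vehicle against 535 in shNC vehicle. Its ratios were 0.17 (-0.07 to 0.40) and 0.10 (-0.13 to 0.34). Tgfa (ENSMUSG00000029999, chromosome 6, 86195223 to 86275719), which encodes the Egfr ligand TGF-alpha, had 315 counts in shFAK norepinephrine against 316 in shNC norepinephrine, and 338 in shFAK vehicle against 390 in shNC vehicle. Its ratios were 0.15 (-0.15 to 0.45) and -0.05 (-0.33 to 0.23). The highest upper limit among the ligand intervals was 0.45, for Tgfa in norepinephrine.

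In all, Met, Egfr, Erbb3, Fgfr1 and Fgfr2 were higher in shFAK in both treatments with intervals that left out 0, 5 of the 8 kept members. The same held for 17.0% of all kept genes, and 16.6% were lower in both. Intervals leave out 0 more readily at high counts. The kept genes were not matched by count to the members, nor to the lists below. In single pairs the interval lay above 0 for 6 members in norepinephrine and 5 in vehicle, against 27.7% and 21.0% of kept genes. The median over the 8 members was 0.70 in norepinephrine and 0.47 in vehicle, against 0.02 and 0.00 over kept genes. At 1.5-fold, Met, Egfr, Erbb3, Fgfr1 and Fgfr2 were called in norepinephrine, and Erbb3, Fgfr1 and Fgfr2 in vehicle, where 8.11% and 3.69% of kept genes were called higher.

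**Figure D2:**
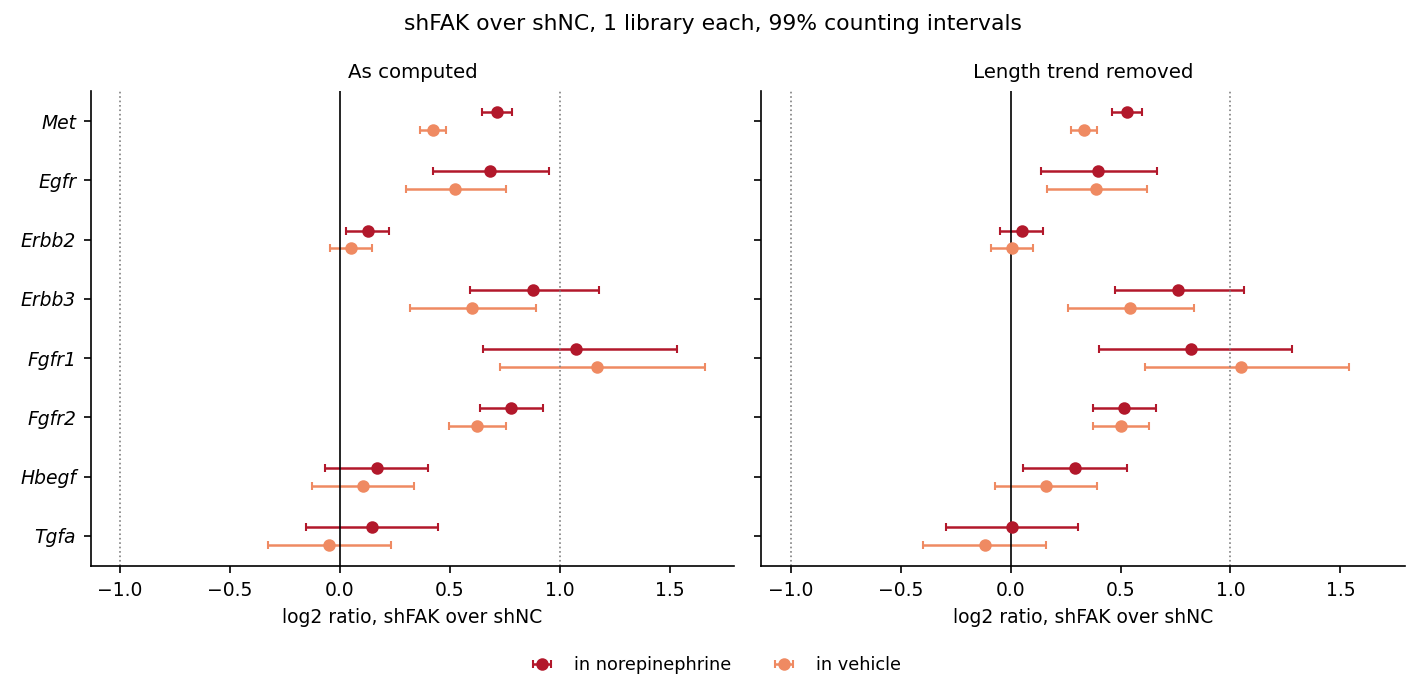
Log2 ratio of shFAK over shNC for each member with counts, in norepinephrine (upper point) and vehicle (lower point), with 99% counting intervals and dotted lines at a 2-fold difference. The left panel gives the ratios as computed and the right panel those left after the trend with gene length was taken off, where 5 receptors still lie to the right of 0 and Erbb2 lies at it.

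Gene length moved with these ratios. Over kept genes the Spearman correlation of the log2 ratio with gene length was 0.466 in norepinephrine and 0.324 in vehicle, given as a description since genes share the same libraries. The receptors run from 5210 bases (Erbb2) to 11326 bases (Egfr), longer than 64.7% and 94.4% of kept genes, whose median is 3981 bases. With a spline trend on length taken off, Fgfr1 was at 0.82 (0.40 to 1.28) in norepinephrine, under 2-fold, and at 1.05 (0.61 to 1.54) in vehicle. Fgfr2 was then at 0.52 and 0.50 and Erbb3 at 0.76 and 0.54 in norepinephrine and vehicle. In the same order of treatments, Egfr was at 0.40 and 0.39 and Met at 0.53 and 0.33. All of these intervals lay above 0. The share of kept genes with intervals above 0 after this correction is not given here. Erbb2 was at 0.05 and 0.01, and the member medians were 0.46 and 0.36, against 0.01 and -0.01 over kept genes. Hbegf, the shortest kept member at its deposited 2373 bases, was at 0.29 (0.06 to 0.53) in norepinephrine and 0.16 (-0.07 to 0.39) in vehicle. These Hbegf values depend on the gene model, and the correction at its 4834 bases of GENCODE M21 exon was not computed. In norepinephrine the trend raised Hbegf from 0.17, while it lowered Erbb2, at 5210 bases, from 0.13.

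**Figure D3:**
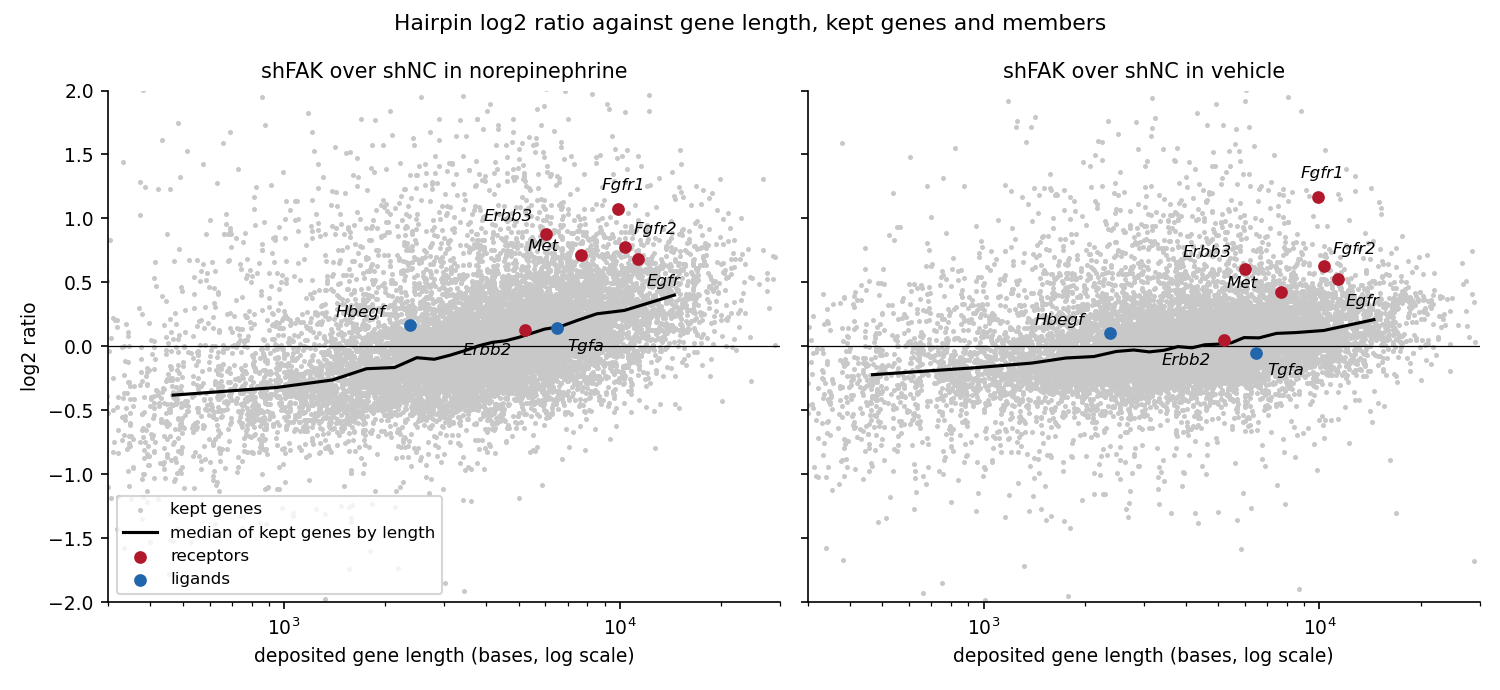
Log2 ratio of shFAK over shNC against deposited gene length (log axis) in norepinephrine (left) and vehicle (right) for kept genes (grey), with receptors in red, ligands in blue and a black line for the median of kept genes in 20 length classes. The line climbs with length. Fgfr1, Fgfr2, Egfr, Met and Erbb3 lie above it in both panels, as does Hbegf at its deposited length. Erbb2 and Tgfa lie at or under it (189 genes fall outside the axes of a panel).

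The norepinephrine comparison set treated against vehicle cells within each line. No member met the size rule in either line, where 0.696% of kept genes were higher and 0.178% lower in shFAK, and 0.364% and 0.494% in shNC. Ratios of the members ran from -0.21 to 0.24 in shFAK and from -0.43 to 0.33 in shNC, with medians of 0.08 and -0.10 against 0.00 over kept genes in both.

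Met was the member whose interval lay under 0 in both lines, as for 9.95% of kept genes. It had 7178 counts in shFAK norepinephrine against 8752 in shFAK vehicle, and 4857 in shNC norepinephrine against 7289 in shNC vehicle. Norepinephrine libraries held fewer scaled Met reads in each line, at 90.6% of vehicle in shFAK (log2 -0.14, -0.20 to -0.08) and 74.0% in shNC (log2 -0.43, -0.50 to -0.37). Egfr, at 86.4% of vehicle in shFAK (log2 -0.21, -0.44 to 0.01) and 77.5% in shNC (log2 -0.37, -0.64 to -0.11), had an interval that held 0 in shFAK and left it out in shNC. Fgfr2 was at -0.07 (-0.19 to 0.05) in shFAK and -0.22 (-0.37 to -0.07) in shNC. In shNC these 3 receptors were the members with intervals under 0, as 22.8% of kept genes were, and in shFAK Met was alone, against 12.3%.

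Of the remaining members, Erbb2 alone had an interval that left out 0, and in shFAK only. The ratios of Fgfr1 and Erbb3 in shFAK were larger in size than that of Met (-0.14), on fewer counts and with wider intervals. Erbb2 was at 0.11 in shFAK (0.02 to 0.21), the single interval above 0 among the members there, against 10.4% of kept genes. Its ratio in shNC was 0.04 (-0.06 to 0.13). With a trend on length and transcript GC content taken off, Erbb2 was at 0.01 in shFAK and -0.01 in shNC. In shNC no member had an interval above 0, against 21.7% of kept genes. Fgfr1 was at 0.24 in shFAK (-0.13 to 0.61) and 0.33 in shNC (-0.18 to 0.87). Hbegf was at 0.14 and 0.08, Tgfa at 0.04 and -0.15 and Erbb3 at 0.23 and -0.05 in shFAK and shNC, with intervals that held 0.

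Over kept genes these ratios were lower in longer genes, with a Spearman correlation of -0.287 in shFAK and -0.487 in shNC. With the length trend taken off, Met was at -0.09 (-0.15 to -0.03) in shFAK and -0.29 (-0.36 to -0.22) in shNC. Egfr was then at -0.12 and -0.13 and Fgfr2 at 0.01 and -0.01 in shFAK and shNC, with intervals that held 0 in both lines. Fgfr1 was at 0.31 in shFAK (-0.06 to 0.68) and 0.54 in shNC (0.02 to 1.07). With transcript GC content also in the trend, Met was at -0.05 in shFAK and -0.25 in shNC. Whether the shFAK interval of Met still left out 0 at that setting is not given here.

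**Figure D4:**
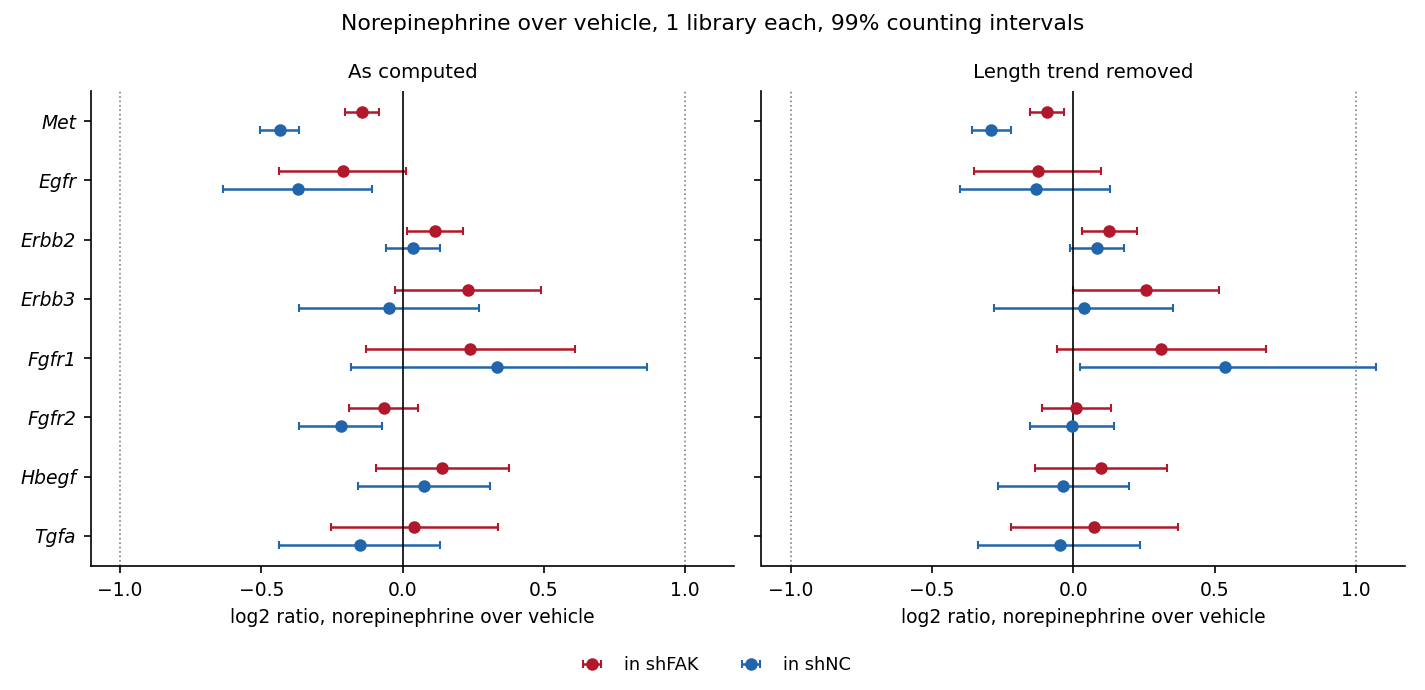
Log2 ratio of norepinephrine over vehicle for each member with counts, in shFAK (upper point) and shNC (lower point), with 99% counting intervals and dotted lines at a 2-fold difference. Left are the ratios as computed and right those left after the trend with gene length was taken off, where Met remains under 0 in both lines and Egfr and Fgfr2 have intervals that hold 0.

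Set against each other, the responses of the lines differed at least 2-fold for no member, against 0.551% of kept genes in the positive and 0.235% in the negative direction. For Met the response in shFAK minus that in shNC was 0.29 on the log2 scale (0.20 to 0.38), the member whose interval left out 0, as for 11.9% of kept genes in that direction. It was 0.20 (0.11 to 0.29) with the length trend taken off. The Met to Erbb2 ratio within a library, which needs no scaling, was 1.69 in norepinephrine against 2.02 in vehicle in shFAK, and 1.13 in norepinephrine against 1.56 in vehicle in shNC.

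Genes with the most similar pattern were sought among 9382 protein-coding genes averaging a CPM of 5 or more, by the Euclidean distance between centred log2 CPM values over the 4 libraries. For Fgfr1, the member with the largest range (1.41 on the log2 scale), they were Mcf2l (distance 0.08), Vipr1 (0.09) and Ly6a (0.10). Vipr1 had 222 counts in shFAK norepinephrine and 191 in shFAK vehicle, against 110 in shNC norepinephrine and 97 in shNC vehicle, close to the counts of Fgfr1 itself. The rule also took Egfr, whose mean norepinephrine ratio of -0.29 was in effect tied in size with those of Met (-0.29) and Fgfr1 (0.29). With the length trend taken off, Fgfr1 (0.42) and Met (-0.19) were larger in size than Egfr (-0.13). For Egfr the nearest genes included Atl3 (0.03) and Dzip3 (0.03). Atl3 had 2869 counts in shFAK norepinephrine and 3572 in shFAK vehicle, against 1932 in shNC norepinephrine and 2794 in shNC vehicle. Each distance rests on 4 values. Fgfr1 had 100 to 218 counts, and its distances were small beside the width of its counting intervals. Counting error could therefore change which genes come out nearest to it. Dzip3, like Egfr, is long, at 9081 bases.

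Of the other ErbB receptors and ligands, 3 of 8 were kept. Erbb4 had 0 to 2 counts per library and the neuregulins Nrg1, Nrg2 and Nrg3, ligands of Erbb3 and Erbb4, had at most 7. Btc, which encodes the ligand betacellulin, had 170 counts in shFAK norepinephrine and 102 in shFAK vehicle, against 87 in shNC norepinephrine and 84 in shNC vehicle. It met the size rule for the hairpin in norepinephrine (log2 1.10, 0.62 to 1.63) and not in vehicle (0.43, -0.12 to 1.01), and its norepinephrine ratio was 0.87 (0.41 to 1.36) in shFAK and 0.20 (-0.38 to 0.79) in shNC. In the library of shFAK cells given norepinephrine 23121 genes had a count, against 20442 to 21678 in the others, and the part of this in the Btc value was not tested. Egf was at 0.99 (0.24 to 1.85) and 0.32 (-0.45 to 1.12), and Nrg4 at -0.18 and -0.43, for shFAK over shNC in norepinephrine and vehicle.

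On the HGF axis, Hgf, the ligand of Met, had 0 counts in every library, a limit of 0.0391 to 0.0514 TPM. Mst1r, which encodes the Met-related receptor RON, had at most 1 count. The kept genes of the 8 listed were the inhibitors of HGF-activating proteases Spint1 and Spint2. Spint2 had 4966 counts in shFAK norepinephrine and 4626 in shFAK vehicle, against 7071 in shNC norepinephrine and 6107 in shNC vehicle. Its hairpin ratio was -0.36 (-0.43 to -0.29) in norepinephrine and -0.24 (-0.31 to -0.17) in vehicle, and its norepinephrine ratio was 0.25 in shFAK and 0.36 in shNC. Spint2 thus had the opposite sign to Met in all 4 ratios, which share the same libraries. Lower intervals in both hairpin pairs were found for 16.6% of kept genes. The share of kept genes with all 4 of these signs was not computed. Spint1 was at 0.99 (0.40 to 1.64) and 0.17 (-0.42 to 0.77) in the hairpin pairs.

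Among 13 FGF axis genes, 6 were kept. Fgfr3 had 1371 counts in shFAK norepinephrine and 1666 in shFAK vehicle, against 979 in shNC norepinephrine and 1338 in shNC vehicle, with hairpin ratios of 0.64 (0.48 to 0.79) and 0.47 (0.34 to 0.61). Fgfr1, Fgfr2 and Fgfr3 were thus higher in shFAK in both treatments, while the kinase receptor Fgfr4 had at most 4 counts and the kinase-lacking Fgfrl1 was at 0.03 (-0.37 to 0.42) and 0.09 (-0.30 to 0.49). Fgfbp1, a secreted carrier of fibroblast growth factors, had 35 counts in shFAK norepinephrine and 36 in shFAK vehicle, against 83 in shNC norepinephrine and 92 in shNC vehicle, and met the size rule in the other direction (-1.06, -1.90 to -0.34, and -1.15, -1.98 to -0.46). The ligand Fgf7, mostly made by stromal cells and a ligand of the epithelial form of Fgfr2, had 456 to 736 counts, while Fgf10 had 0. Fgf7 was at -0.12 in shFAK and -0.26 (-0.47 to -0.05) in shNC with norepinephrine, and Fgf1 at 0.92 (0.41 to 1.49) and 0.43 (-0.05 to 0.92) in the hairpin pairs in norepinephrine and vehicle.

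Genes that release ligands and relay or damp receptor signals moved by less than 2-fold in every comparison. Of 4 release genes, 4 had hairpin intervals above 0 in norepinephrine and 3 in vehicle, against 27.7% and 21.0% of kept genes. Adam10, a protease that sheds EGF-family ligands, was at 0.50 (0.42 to 0.59) and 0.26 (0.19 to 0.33). Adam17, the main sheddase of Hbegf and Tgfa, was at 0.21 and 0.15, and Rhbdf1, a partner of that protease, at 0.10 and 0.19. After correction for length, Adam10 was at 0.44 and 0.22, Adam17 at 0.04 and 0.07 and Rhbdf1 at 0.01 and 0.14, and the median of the 4 was 0.13 and 0.11, against 0.25 and 0.17 as computed. Of 12 adaptors, 9 had intervals above 0 and 2 below in norepinephrine, and 6 and 3 in vehicle. Of kept genes 27.7% lay above and 25.7% below in norepinephrine, and 21.0% and 20.9% in vehicle. The adaptor medians were 0.47 and 0.16, or 0.26 and 0.08 with the length trend taken off. Sos2, an exchange factor for RAS, was at 0.52 (0.35 to 0.69) and 0.54 (0.38 to 0.70), the docking protein gene Gab2 at 0.51 and 0.33, and Grb7, with 19 to 44 counts, at -0.37 and -0.98. Of 10 kept attenuators out of 14, 6 lay above 0 and none below in each pair, beside the same shares of kept genes. They included Cblb, a ubiquitin ligase for activated receptors, at 0.54 (0.38 to 0.72) and 0.20 (0.06 to 0.35), and Lrig1, which promotes ErbB receptor degradation, at 0.44 (0.30 to 0.58) and 0.32 (0.19 to 0.45). Cbl, of the same family as Cblb, was at 0.51 and 0.20. Corrected for length, Cblb was at 0.41 and 0.14, Lrig1 at 0.34 and 0.27 and Cbl at 0.21 and 0.05, and the attenuator median was 0.17 and 0.08, against 0.28 and 0.12 as computed. Sos2 was then at 0.30 and 0.43 and Gab2 at 0.39 and 0.26. Spry2, another attenuator, had 0 counts.

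Of 16 core kinases and GTPases, 3 had hairpin intervals above 0 and 6 below in norepinephrine, where 27.7% and 25.7% of kept genes did. In vehicle 1 lay above and 6 below, against 21.0% and 20.9% of kept genes, and the medians were -0.05 in norepinephrine and -0.04 in vehicle. Braf was at 0.52 (0.39 to 0.65) and 0.21 (0.11 to 0.32), and Map2k2, which encodes MEK2, at -0.53 (-0.59 to -0.47) and -0.33 (-0.40 to -0.27). Pik3cb, a catalytic subunit of PI3 kinase, was at -0.32 and -0.40. The length-corrected ratios were 0.19 and 0.06 for Braf, -0.63 and -0.38 for Map2k2 and -0.49 and -0.48 for Pik3cb. With norepinephrine, 4 of 12 adaptors had intervals below 0 in shFAK and 9 in shNC, against 12.3% and 22.8% of kept genes, and none had one above 0 in either, against 10.4% and 21.7%. Frs2, which links FGF receptors to RAS, was at -0.34 (-0.53 to -0.16) in shFAK and -0.63 (-0.83 to -0.44) in shNC, or -0.28 and -0.46 with the length trend taken off. Sos1 was at -0.20 and -0.59 in shFAK and shNC, Cbl at -0.21 and -0.52, Cblb at -0.16 and -0.51 and Adam10 at -0.13 and -0.37. In the same comparison Hras was at 0.18 (0.10 to 0.27) and 0.36 (0.29 to 0.43), and Braf at -0.21 and -0.51. The length-corrected values in shFAK and shNC put Sos1 at -0.13 and -0.41, Cbl at -0.11 and -0.27, Cblb at -0.13 and -0.41, Adam10 at -0.12 and -0.34, Hras at 0.16 and 0.33 and Braf at -0.10 and -0.23.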

How the data were processed

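RNA-seq was done on 4 cultures of a mouse cell line, 1 library per group. The authors deposited raw read counts per gene with gene coordinates and lengths. Tools named per the submitters' processing notes are featureCounts 1.5.0-p3 and HISAT2 2.0.5, with build mm10. Which annotation was counted, and how strand and multi-mapping reads were handled, is not given in the sources used here, and the kit named in the labels' protocols does not mark strand. Deposited coordinates equalled GENCODE M21 for 95.2% of 52489 shared identifiers. No member had a match of at least 95% identity over 100 bases in a gene elsewhere in the genome (minimap2 2.31-r1302); exons shared with opposite-strand genes covered at most 3.42% of a member.

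From the deposited counts, TMM library sizes were computed with edgeR 4.0.16 in R 4.3.3 on 12351 genes with a CPM of at least 1 in at least 1 library. Log2 ratios used a prior count of 2. Intervals are exact 99% Clopper-Pearson intervals of the 2 counts, and for the difference of responses a normal approximation (scipy 1.17.1). TPM used all genes and the deposited lengths. Trends were natural splines with 4 degrees of freedom (patsy 1.0.2). The calculation was tested on simulated counts. Named genes were all members, in each of 7 lists the up to 3 and 2 genes with the largest mean hairpin and norepinephrine ratios at a mean CPM of at least 1, and the nearest patterns. The members, lists and motifs were chosen with earlier results of these data known. Alternatives were unscaled library totals, upper-quartile scaling, scaling by DESeq2 1.42.0, a filter at a CPM of 5 or none, a prior count of 0.5 or 10, a 1.5-fold rule, 95% intervals, protein-coding genes, no mitochondrially encoded genes, RPKM, and the length trend. A trend on length and transcript GC content was added after the data had been seen. Some genes that these rules or the marker lists take in are not reported here.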

Additional observations from a re-analysis of the deposited data

Results flagged for a closer look

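Erbb3 and Tgfa had norepinephrine ratios of opposite sign in the lines. Erbb3 was at 0.23 in shFAK and -0.05 in shNC, a difference of 0.28 on the log2 scale. Tgfa was at 0.04 in shFAK and -0.15 in shNC, a difference of 0.19. With 1 library per group neither difference was tested, and all 4 counting intervals held 0. With the length trend taken off, Erbb3 was at 0.26 in shFAK and 0.04 in shNC, the same sign in both, and it was at 0.24 and 0.02 when GC content was also in the trend. Tgfa was at 0.07 in shFAK and -0.05 in shNC with the length trend taken off.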

How the results depend on the processing

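The count of members that met the size rule was 1 in each hairpin pair. It was 3 in vehicle and 5 in norepinephrine at 1.5-fold, and 0 in norepinephrine with the length trend, or the length and GC trend, taken off. Other alternatives gave 1 in each pair, and no setting gave a member in the norepinephrine pairs or the difference of responses. Over the 11 alternatives that can change a ratio, 24 of 440 member ratios moved beyond their 95% counting interval, 22 of them under the trends and 2 with library size alone. The sign changed for 6 of the 440, all under the trends and all for ratios of at most 0.08 in size. The share of Met in the summed level of the members over the 4 libraries was 45.3% in TPM and 45.0% in RPKM. No paired analysis was possible because each group had 1 library. Depth limits the low members most: in vehicle the hairpin interval ran from 0.73 to 1.66 for Fgfr1 and from 0.36 to 0.48 for Met. With library size alone the median over kept genes was 0.11 for the hairpin in norepinephrine, and the member median 0.79. Counts over all genes, against which the members were read, moved more. In the hairpin comparison, 323 genes were higher and 78 lower in norepinephrine and 175 and 57 in vehicle. A filter at a CPM of 5 left 111 higher and 25 lower in norepinephrine, and 69 higher and 17 lower in vehicle. Without a filter, norepinephrine had 538 higher and 125 lower. For norepinephrine over vehicle, 86 genes were higher and 22 lower in shFAK, and 45 and 61 in shNC. Without a filter shFAK had 351 higher and 52 lower genes and shNC 79 and 94. The filter at a CPM of 5 gave shFAK 10 and 4 and shNC 14 and 15, a prior count of 10 gave shFAK 61 and 6 and shNC 23 and 39, and protein-coding genes alone gave shFAK 73 and 6 and shNC 26 and 23. With the length trend taken off, the shNC counts were 35 and 83. The 68 genes with a positive and 29 with a negative difference of responses became 10 and 11 at the CPM filter of 5, 24 and 15 under the prior count of 10, 131 and 54 with 95% intervals, 44 and 18 among protein-coding genes and 82 and 20 without the length trend. The cause of these shifts was not tested, beyond the number of genes that each filter leaves.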
